A study of Mus musculus with 9 samples.

Results

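Cyp2g1 and 9 other cytochrome P450 genes of the Cyp2 cluster on mouse chromosome 7 were followed in RNA of the secretory lateral nasal gland of the mouse nose. The members were the probe sets whose platform annotation names Cyp2g1, Cyp2a4, Cyp2a5, Cyp2a12, Cyp2b9, Cyp2b10, Cyp2b13, Cyp2b19, Cyp2f2 or Cyp2s1. All 10 genes were found, on 11 of the 22626 probe sets of the table: Cyp2b10 has 3, Cyp2a4 and Cyp2a5 share 1, and each of the others has 1. Male mice aged 2 to 3 months in 3 groups were compared. Wild-type 129/Sv gave 2 arrays and wild-type C57BL/6 (B6) gave 4. The Cyp2g1-null line, on a mixed background of 129/Sv and C57BL/6, gave 3. The labels describe no other allele and no treatment, and both strains served as controls because of the mixed background. Each array held RNA pooled from the glands of 10 mice, so the spread between arrays is that between pools, and p-values measure only that spread. The null animals came from 1 line whose background can differ from either strain at any locus, so a strain allele near Cyp2g1 and the loss of Cyp2g1 cannot be told apart by these groups alone.

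Cytochrome P450 enzymes are haem proteins of the endoplasmic reticulum that oxidise steroids, fatty acids and foreign chemicals, with electrons from the P450 reductase and cytochrome b5. The genes of the Cyp2a, Cyp2b, Cyp2f, Cyp2g and Cyp2s subfamilies arose by duplication and lie in 1 region, with other genes between them, and their transcripts can be very alike. In the nose these enzymes are known for clearing inhaled chemicals and for turning some of them into local toxicants, and Cyp2g1 and Cyp2a5 are known as enzymes of the olfactory mucosa that hydroxylate steroids. In the gene order of chromosome 7, Cyp2a5 is the gene next to Cyp2g1, and Cyp2b19 is its nearest protein-coding gene on the other side. Cyp2a4 lies 10 places from Cyp2g1 on the side of Cyp2b19. Cyp2s1 and Cyp2f2 are the outermost members, 28 places before and 10 places after Cyp2g1.

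Signals are MAS5 intensities on a linear scale, scaled by the authors to a common level on every array. Array medians lay between 518.55 and 550.05, and correlations between arrays over the tested probe sets, which are not independent replicates, ran from 0.931 to 0.972. Of the 11 probe sets, 8 exceeded the array median on at least 2 arrays and were tested together with 12567 others. Those of Cyp2a12, Cyp2b9 and Cyp2b13 stayed under the median on all 9 arrays. The secretory identity of the tissue was seen in the odorant-binding protein Obp1a, whose group means were 129500 (129/Sv), 143900 (B6) and 128800 (null), and in the water channel Aqp5, with 23130, 25380 and 25280. Not all nasal gland markers were level between the groups. Of 9 tested, 1 was called higher (Car6) and 1 lower (Lcn3) against B6, where 2.18% of all probe sets were called. Car6 averaged 38430, 4100 and 54600 in 129/Sv, B6 and null arrays, and Lcn3 1915, 2748 and 1281. Scgb1b27, with 17040, 76800 and 108200, was called higher against 129/Sv, where 2.04% of all were called. Markers of neighbouring tissue were also measured. The summed signal of 6 ciliated cell markers was 12518 to 14574 in 129/Sv and 11018 to 13882 in B6 arrays. On null arrays it was 17910 to 18863. Of these markers, 4 (Dnah5, Tppp3, Lrrc23 and Rsph1) were called higher in null than in B6 arrays, beside the 2.18% of all. In the comparison with 129/Sv 0 of the 6 passed. There 5 had an unadjusted p under 0.05 (limma), where 1111 of all 12575 probe sets had one of 0.0287 or less. With the 2 strains averaged, 3 passed (Dnah5, Tppp3 and Lrrc23), where the share over all probe sets was 1.22%. The part of this shift of ciliated markers in the results below was not tested. As whole pools were measured, fewer cells of a type and less RNA per cell cannot be told apart.

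Levels on the log2 scale are log2(signal + 16) throughout, and fold changes are differences on that scale, which understates the change of low signals. A probe set was called where its adjusted p (limma, Benjamini-Hochberg over all 12575) was under 0.05. Of the 8 tested probe sets, 2 were called lower in null than in B6 arrays (Cyp2g1 and Cyp2a4/Cyp2a5), while 1.07% of all 12575 probe sets were called lower. Against 129/Sv 3 were called lower (Cyp2a4/Cyp2a5, Cyp2b10 at 1451787_at and Cyp2b19), where 0.628% of all were. Against the mean of both strains 3 were called lower (Cyp2g1, Cyp2a4/Cyp2a5 and Cyp2b10 at 1451787_at), where 0.469% of all were. In B6 against 129/Sv 1 was called lower (Cyp2b19), where 2.27% of all were. None of the 8 was called higher in any of these limma comparisons. Calls in either direction made up 2.18%, 2.04%, 1.22% and 5.19% of all against B6, 129/Sv, the mean and between the strains. At those shares 8 probe sets would hold few or no calls higher. The number of the 8 higher at an unadjusted p under 0.05 was 0 in the 3 null comparisons and 1 in B6 against 129/Sv (Cyp2g1). The median log2 difference of the 8 was -0.39 against B6, -0.98 against 129/Sv and -0.52 against the mean of both strains, while those of all probe sets were 0.02, 0 and 0.01. Between the strains (B6 minus 129/Sv) it was -0.39 as well, against -0.01 over all. These comparisons share arrays, and the 3 Cyp2b10 probe sets read 1 gene, so the counts are not independent. Cyp2g1 is the gene targeted in the null line, so its calls in the null comparisons tell nothing about the other members. It also enters the counts and medians above. Apart from Cyp2g1, only Cyp2a4/Cyp2a5 was called against B6, and only Cyp2a4/Cyp2a5 and Cyp2b10 at 1451787_at against the mean.

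**Figure D1:**
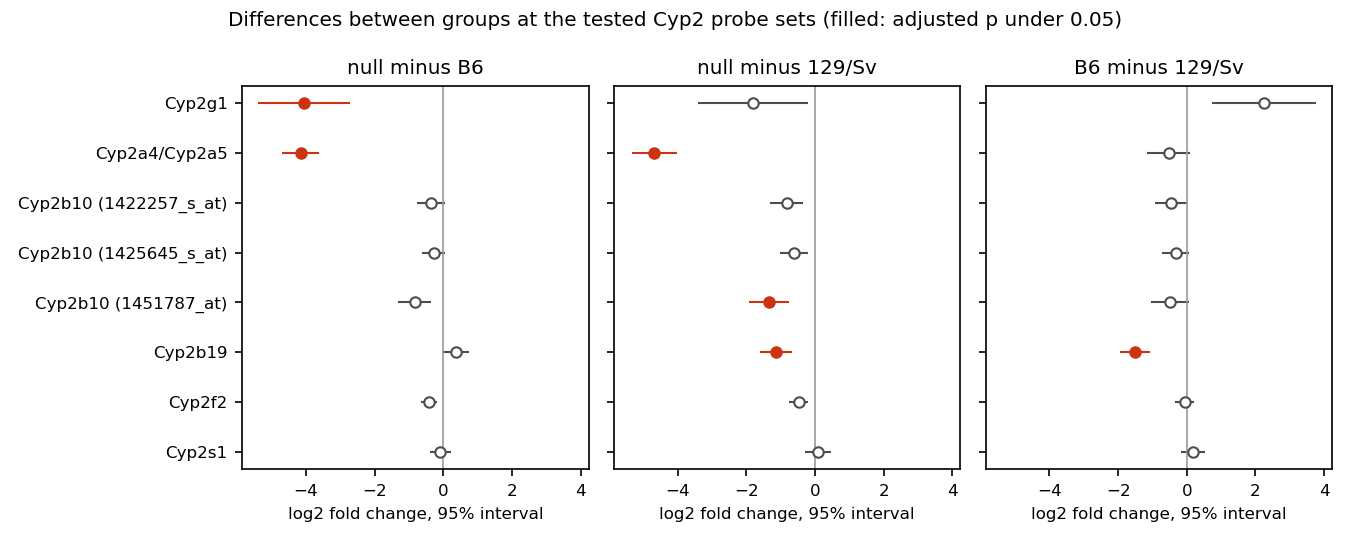
Log2 fold change with its 95% interval at the 8 tested probe sets, for null minus B6, null minus 129/Sv and B6 minus 129/Sv. Filled points have an adjusted p under 0.05. The Cyp2a4/Cyp2a5 probe set lies at -4.16 and -4.69 against the strains, and Cyp2b19 at -1.5 between the strains.

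Cyp2g1, the targeted gene, was lower in every null pool than in any wild-type pool, and varied widely among the wild-type pools. Its signals were 207.5 and 981.2 on the 129/Sv arrays, 5916.8, 748.2, 2006.9 and 2799.4 on the B6 arrays and 55.7, 140.6 and 201.1 on the null arrays. All 3 null signals lay under their array's median, and so did that of 129/Sv array 1, which exceeded the highest null signal by only a few units. On the log2 scale the B6 arrays averaged 11.14 ± 1.23 (SD, n = 4), the 129/Sv arrays 8.88 ± 1.53 (SD, n = 2) and the null arrays 7.07 ± 0.82 (SD, n = 3).

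Against B6, Cyp2g1 fell by 4.07 on the log2 scale (95% interval -5.4 to -2.73, adjusted p = 0.00268). This call was kept in all 22 alternative fits, with adjusted p-values between 0.00101 and 0.036. Against 129/Sv the difference was -1.81 (95% interval -3.4 to -0.22, adjusted p = 0.325), which did not pass, and B6 exceeded 129/Sv by 2.26 (95% interval 0.74 to 3.77, adjusted p = 0.0885), which did not pass either. Both values turn on single arrays. The difference from 129/Sv was -0.73 without 129/Sv array 2 and -2.89 without 129/Sv array 1 (adjusted p = 0.952 and 0.145). That between the strains was 3.33 and 1.18 without these (adjusted p = 0.0507 and 0.607), and it passed without B6 array 2 (2.78, adjusted p = 0.0222). Against the mean of the strains the difference was -2.94 (95% interval -4.2 to -1.68, adjusted p = 0.028), a call lost in 9 of 22 alternatives, among them those without 129/Sv array 2 (adjusted p = 0.116), B6 array 3 (0.0516) or any 1 null array (0.0592 to 0.162). In an exact two-sided permutation test of 3 null against 6 wild-type arrays the difference was -3.31 with p = 0.0238, where 0.0119 is the smallest value that 84 regroupings can give. Without B6 array 3 or 4 that p was 0.0536 each, and without null array 1 it was 0.0714. Whether this probe set matches the part of Cyp2g1 that was deleted is not stated by any source used here, so the remaining signal in null pools cannot be assigned to background or to a remaining transcript.

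The spread of Cyp2g1 among wild-type pools ran largely, though not in every pool, alongside olfactory neuron markers. Of 10 such markers 6 were on the array, and their summed signal was 1341 and 2235 on the 129/Sv arrays, 8524, 2344, 4130 and 5958 on the B6 arrays and 1951, 1740 and 5577 on the null arrays. The 3 wild-type pools with the most marker signal, B6 arrays 1, 4 and 3, were also the 3 with the most Cyp2g1, in the same order. 129/Sv array 2 had less marker signal than B6 array 2 (2235 against 2344) and more Cyp2g1 (981.2 against 748.2). The summed signal of 6 sustentacular and Bowman gland markers was 43018, 31640, 31874 and 40300 on the B6 arrays, in the order of their Cyp2g1. It was highest on the 129/Sv arrays (47233 and 44371), where Cyp2g1 was low. The marker sum of null array 3 lay between those of B6 arrays 3 and 4, and its Cyp2g1 signal was 201.1 against their 2006.9 and 2799.4. Omp, the olfactory marker protein, had 1869.7 on null array 3 and 1158.5 and 1514 on those B6 arrays. In a fit with the mean log2 level of the tested olfactory markers as a covariate, chosen after the data were seen, the Cyp2g1 difference of null arrays was -3.23 from B6 (SE 0.481, adjusted p = 0.00404) and -2.8 from 129/Sv (SE 0.575, adjusted p = 0.0265). In that fit the difference between the strains was 0.43 (SE 0.675, adjusted p = 0.843).

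**Figure D2:**
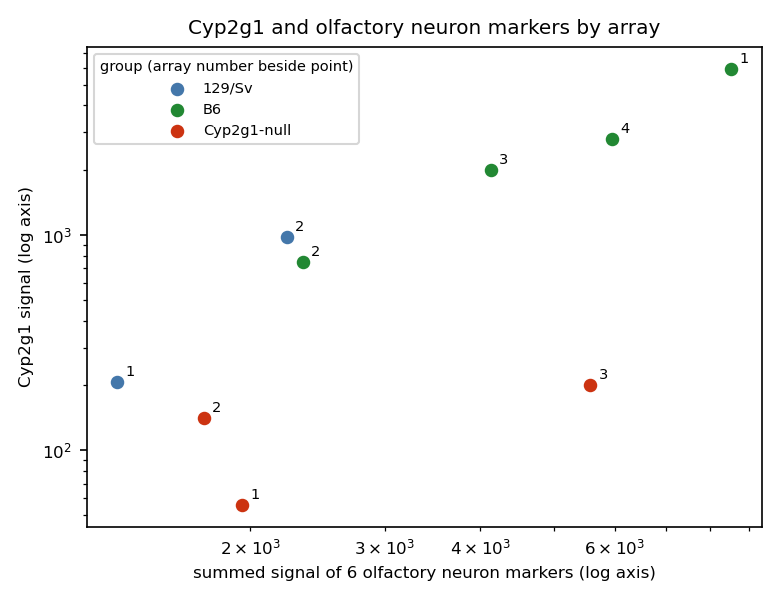
Cyp2g1 signal (vertical log axis) against the summed signal of 6 olfactory neuron markers (horizontal log axis), 1 point per array, coloured by group with the array number beside it. Null array 3, at a marker sum of 5577, lies far under B6 arrays 3 and 4 at 201.1 for Cyp2g1.

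Cyp2a4 and Cyp2a5, read by 1 common probe set, had signals that were lower in every null pool than in any wild-type pool. Their difference was the largest of the 8 probe sets against 129/Sv and against the mean of both strains. Against B6 it was close to that of Cyp2g1, and their order turned with a pseudocount of 1 (-4.17 against -4.25), without B6 array 2 (-4.41 against -4.59) and without null array 2 (-3.99 against -4.18). Cyp2a5 hydroxylates coumarin and activates several nasal toxicants, and Cyp2a4 is known as a testosterone hydroxylase. The probe set cannot tell them apart. Their upstream sequences, taken from RefSeq, are shown because they are nearly the same too: the 250 bases before each start, 5′ to 3′ on the plus strand of build GRCm38.p6, with the bases that differ in capitals. Cyp2a4 is at chr7:26306942-26307191 and Cyp2a5 at chr7:26835089-26835338.
Cyp2a4: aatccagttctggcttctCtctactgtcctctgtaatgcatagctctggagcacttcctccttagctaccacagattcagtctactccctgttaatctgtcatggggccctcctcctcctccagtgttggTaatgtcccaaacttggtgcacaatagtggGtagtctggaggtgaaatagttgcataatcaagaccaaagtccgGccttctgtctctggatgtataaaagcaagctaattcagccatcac
Cyp2a5: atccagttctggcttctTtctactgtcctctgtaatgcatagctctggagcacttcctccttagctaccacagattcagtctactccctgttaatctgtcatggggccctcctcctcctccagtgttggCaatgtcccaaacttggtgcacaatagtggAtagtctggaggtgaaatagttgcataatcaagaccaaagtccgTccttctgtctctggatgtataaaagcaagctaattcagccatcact

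Over 249 aligned bases these sequences differed at 4 and were 98.4% identical. Both hold TATAAA, the letters of a TATA box, on the gene's strand, 28 bases before the start in Cyp2a4 and 29 in Cyp2a5. On either strand 12.4% of the 32851 RefSeq promoter windows of this length hold it. The letters TTGGC, a core recognised by nuclear factor I, occur 125 bases before the start of Cyp2a5, over the second difference in capitals, and not in the Cyp2a4 window, and 41.5% of all windows hold them on either strand. A match of letters does not show a site in use.

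The shared probe set had signals of 81184.2 and 100181.8 on the 129/Sv arrays, 66850.9, 37580.9, 67827.5 and 90653.1 on the B6 arrays and 2931.4, 2754.6 and 5248.9 on the null arrays. The groups did not overlap: the lowest wild-type signal was 37580.9, on B6 array 2, and the highest null signal 5248.9, on null array 3. All null signals still lay above their array's median. The log2 difference was -4.16 (95% interval -4.71 to -3.61) against B6 and -4.69 (95% interval -5.34 to -4.03) against 129/Sv. With adjusted p-values of 9.66e-07 and 5.25e-07 it ranked 3rd and 12th by p among the 12575 probe sets tested. Both calls were kept in 21 of 21 alternatives. The highest adjusted p was 0.00064 against B6 and 0.000316 against 129/Sv. Within the groups some extremes fell on the same arrays as for Cyp2g1: array 3 was the highest of the null arrays and array 2 the lowest of the B6 arrays for both probe sets. Other extremes differed. The highest B6 array was array 1 for Cyp2g1 and array 4 here, and the lowest null array was array 1 for Cyp2g1 and array 2 here. With the olfactory covariate the difference from B6 was -3.77 (SE 0.158, adjusted p = 4.5e-08) and that from 129/Sv -5.15 (SE 0.189, adjusted p = 5.66e-09). In that fit B6 was below 129/Sv by -1.38 (SE 0.222, adjusted p = 0.00404), whereas without the covariate that difference was -0.52 (95% interval -1.15 to 0.1, adjusted p = 0.387).

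**Figure D3:**
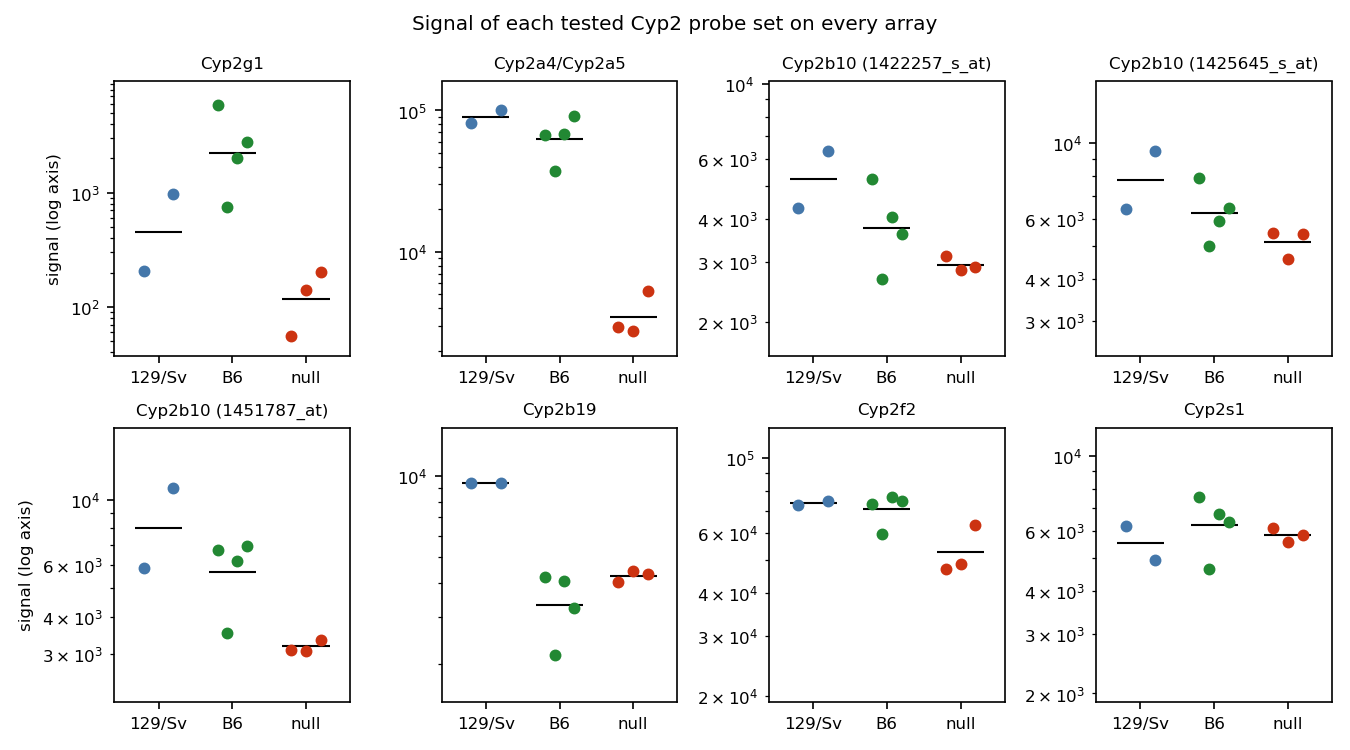
Signal of the 8 tested probe sets on each array (log axis), 1 panel per probe set, with a line at the mean log2 level of each group. Null signals of Cyp2g1 and of the Cyp2a4/Cyp2a5 probe set lie under every wild-type signal, while those of Cyp2s1 lie within the wild-type range.

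Cyp2b10, the phenobarbital-inducible member and a known target of the constitutive androstane receptor, was read by 3 probe sets that differed in the size of the change. At 1451787_at, the one whose type is not marked as matching several transcripts, signals were 5849.8 and 10933.5 on the 129/Sv arrays, 6764.4, 3517.8, 6173.8 and 6981.8 in B6 and 3098.5, 3073.7 and 3331.2 in null arrays. Every null signal was under every wild-type signal, and the null pools varied little. It was lower in null arrays than the mean of both strains by -1.08 on the log2 scale, or 2.12-fold (95% interval -1.55 to -0.62, adjusted p = 0.0279), and than 129/Sv by -1.33 (95% interval -1.92 to -0.75, adjusted p = 0.0198). Against B6 the difference was -0.84 (95% interval -1.32 to -0.35, adjusted p = 0.0791), which did not pass. It passed in 5 of 22 alternatives, such as without B6 array 2, the lowest wild-type pool (-1.06, adjusted p = 0.0076). Leaving out 129/Sv array 2 ended the call against 129/Sv (-0.88, adjusted p = 0.323), as did leaving out any 1 null array (adjusted p from 0.0587 to 0.0704). Against the mean the call ended without 129/Sv array 2 (adjusted p = 0.105), B6 array 3 (0.0527) or any 1 null array (0.0988 to 0.128), and with the 6 wild-type arrays as 1 group (0.24).

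The other Cyp2b10 probe sets had smaller differences. At 1422257_s_at the signals reached 4300.8 and 6343.8 on the 129/Sv arrays, 2664.8 to 5242.2 with a median of 3839.45 in B6 and 2826.4 to 3107.8 in null arrays. The null signals lay under both 129/Sv signals and within the range of B6, and the difference from the mean of both strains was -0.59 (95% interval -0.98 to -0.21, adjusted p = 0.164). At 1425645_s_at the null range of 4568.5 to 5455.4 again lay under 129/Sv (6392.9 and 9491.1) and overlapped B6 (5004 to 7905.7), with a difference of -0.44 (95% interval -0.76 to -0.12, adjusted p = 0.22). All 3 probe sets had negative differences from both strains, and 1 of the 3 was called.

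Cyp2b19, known as an arachidonate epoxygenase of epidermal keratinocytes, differed between the strains, and the null pools were near B6. Signals were 9401.1 and 9368.3 on the 129/Sv arrays, 4192.5, 2161.2, 4059.8 and 3222.2 in B6 and 4016.8, 4435.2 and 4326.6 in null arrays. Both 129/Sv signals exceeded all others, and null and B6 signals overlapped. B6 was lower than 129/Sv by -1.5 (95% interval -1.94 to -1.07, adjusted p = 0.000414), or 2.83-fold, in this fit and in all 22 alternatives. Null arrays were lower than 129/Sv by -1.14 (95% interval -1.6 to -0.68, adjusted p = 0.0114), and the difference from B6 was 0.37 (95% interval -0.02 to 0.75, adjusted p = 0.375). This call against 129/Sv did not outlast leaving out either 129/Sv array (adjusted p = 0.0836 and 0.107) or null array 1 (0.0529). The sequences before Cyp2b10 and Cyp2b19 are shown to set the Cyp2b members beside each other, with TTGGC, on either strand, in capitals, again 250 bases on the plus strand of GRCm38.p6 from RefSeq, at chr7:25897408-25897657 for Cyp2b10 and chr7:26756892-26757141 for Cyp2b19.
Cyp2b10: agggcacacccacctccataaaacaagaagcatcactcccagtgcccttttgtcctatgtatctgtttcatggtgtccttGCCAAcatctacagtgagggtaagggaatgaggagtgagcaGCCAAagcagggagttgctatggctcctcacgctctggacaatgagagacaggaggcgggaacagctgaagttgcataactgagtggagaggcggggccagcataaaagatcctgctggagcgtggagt
Cyp2b19: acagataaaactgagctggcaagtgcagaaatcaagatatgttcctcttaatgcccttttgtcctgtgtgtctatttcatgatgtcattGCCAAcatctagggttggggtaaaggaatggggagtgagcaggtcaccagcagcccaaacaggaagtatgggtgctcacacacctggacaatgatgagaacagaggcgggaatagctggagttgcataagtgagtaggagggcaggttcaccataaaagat

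These windows were 76.8% identical over 228 aligned bases, less alike than those of Cyp2a4 and Cyp2a5. TTGGC was found on the reverse strand, 2 times before Cyp2b10 and 1 time before Cyp2b19. AGGTCA, a core recognised by nuclear receptors, was in the Cyp2b19 window and not in that of Cyp2b10, and 14% of all windows hold it on either strand. The RefSeq sequence is that of C57BL/6J, so it does not show how 129/Sv differs here. Of 10 members 9 had an entry, and the missing one was Cyp2g1. These letters, the forkhead core TGTTTAC and the CCAAT box were searched on both strands in every window. The nuclear receptor core was also found before Cyp2f2, Cyp2b9 and Cyp2b13, the nuclear factor I core before Cyp2a12, Cyp2b9 and Cyp2b13, and a TATA box and a CCAAT box before Cyp2a12. None of the 5 was found before Cyp2s1. The windows of Cyp2b9 and Cyp2b13 differed at 2 of 250 bases.

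Cyp2f2, an enzyme of airway club cells that activates naphthalene, was lower in null pools by a small amount that missed the threshold. Signals were 72589.4 and 74865.3 on the 129/Sv arrays, 72946, 59528.9, 76462.2 and 74892.3 in B6 and 47147.5, 48831 and 63667.6 in null arrays. The null pools lay under both 129/Sv pools, and null array 3 exceeded B6 array 2. The difference from the mean of both strains was -0.45 (95% interval -0.68 to -0.23, adjusted p = 0.0538). It was -0.42 against B6 and -0.48 against 129/Sv (adjusted p = 0.0664 and 0.0896). The difference from the mean passed in 9 of 21 alternatives, with adjusted p-values between 0.0151 and 0.274. Without null array 3 it was -0.59 (adjusted p = 0.0195), and without B6 array 2 it was -0.49 (adjusted p = 0.0268).

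Cyp2s1, a dioxin-inducible epithelial P450, had signals of 6190.1 and 4939.4 on the 129/Sv arrays, 7529.7, 4651.7, 6746.3 and 6371.7 in B6 and 6144.7, 5560 and 5842.4 in null arrays. The null signals lay within the range of both strains, and the difference from the mean of both strains was -0.01 (95% interval -0.3 to 0.28, adjusted p = 0.991). Its sign turned in 5 of 22 alternatives, so it has no direction.

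Cyp2a12, a liver steroid hydroxylase, had signals of 291.9 and 458 on the 129/Sv arrays, 364.1, 326, 201.8 and 301.9 in B6 and 48.2, 118.1 and 260.4 in null arrays. The null signals were under both 129/Sv signals and overlapped B6. In a fit with no filter its difference from the mean of both strains was -1.36 (SE 0.478, adjusted p = 0.353). Cyp2b9 and Cyp2b13, known as female-predominant P450s of liver, had signals of 26.1 to 291.3 and 17 to 258.5 over the 9 arrays with overlapping groups. Their differences from the mean were 0.22 (adjusted p = 0.959) and 0.17 (adjusted p = 0.975). Without detection calls these signals cannot be told from background.

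Among the 4 B6 pools, array 2 had the lowest signal at all 8 tested probe sets. Over all tested probe sets it was the lowest B6 array at 26.5%. Its deviation from the B6 mean ran from -1.56 for Cyp2g1 to -0.25 for Cyp2f2, with a median of -0.55, against a median of 0 over all probe sets. B6 array 1 lay above the group mean at all 8, by a median of 0.31. Over all tested probe sets 47.5% lay below the group mean on that array, with a median deviation of 0.01. Array 2 also had the lowest summed signal of the B6 arrays for 5 of the 8 other gene lists. These were the olfactory neuron markers (2344 against 4130 to 8524 on the other B6 arrays), the ciliated markers (11018 against 11265 to 13882), the sustentacular and Bowman gland markers (31640 against 31874 to 43018), the P450 partners (72115 against 75819 to 87914) and the P450s from outside the cluster (9140 against 10589 to 11586). It was not the lowest for the nasal gland markers, the regulators or the basal and duct markers. As linear signals are summed, the brightest genes weigh most. Cbr2 averaged 31200 in B6 among the sustentacular and Bowman gland markers, and Cyb5a 21510 among the P450 partners. The part of these lists in the shift of the Cyp2 signals was not tested. In 129/Sv, array 2 exceeded array 1 at 6 of the 8 probe sets, and did so at 47.6% of all. Without B6 array 2, the number of members called against B6 was 4, adding Cyp2b10 at 1451787_at and Cyp2f2, while 1.84% of all probe sets were called. In the comparison with both strains 6 were called, where 1.12% of all were. As array 2 was singled out for its low member signals, leaving it out raises the B6 mean of all 8. These larger counts are therefore no separate result.

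**Figure D4:**
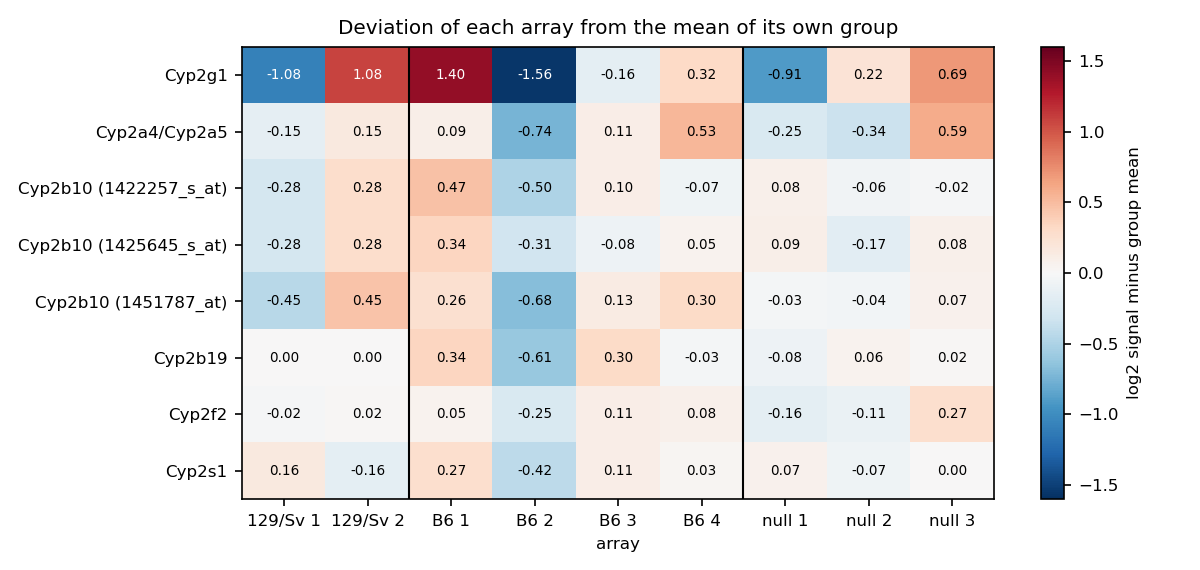
Deviation of each array from the mean of its own group, in log2 signal, for the 8 tested probe sets (rows) on the 9 arrays (columns), with vertical lines between groups. B6 array 2 is below its group mean in all 8 rows, from -0.25 to -1.56.

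Genes around the cluster were compared next. In the RefSeq gene order, 30 other genes with a tested probe set were taken, the nearest 15 on each side of Cyp2g1. None was called against B6 (limma, with 4 at an unadjusted p under 0.05), where 2.18% of all tested probe sets were called in either direction, and their log2 differences ran from -0.4 to 0.63. Against 129/Sv 1 was called higher and 0 lower, with a median of -0.1, where 2.04% of all were called. That gene was Fcgbp, a mucus protein that binds IgG, 59 places from Cyp2g1, with signals of 830.4 in 129/Sv, 1808 in B6 and 2077 in null arrays (difference from 129/Sv 1.32, SE 0.212, adjusted p = 0.00343). Fcgbp was also the 1 gene of the 30 called against the mean of both strains (0.77, SE 0.167, adjusted p = 0.0421), where 1.22% of all were called. Between the strains 3 of the 30 were called, where 5.19% of all were. Fcgbp was higher in B6 (1.1, adjusted p = 0.00457), and the mucosal chemokine Cxcl17 (-0.67, adjusted p = 0.00563) and the biliverdin reductase Blvrb (-0.96, adjusted p = 0.0223) were lower. By limma, 5, 5 and 9 of the 30 had an unadjusted p under 0.05 against 129/Sv, the mean and between the strains. Such p-values were common over all 12575 probe sets. There 2067 had one of 0.0618 or less against B6 and 1111 one of 0.0287 or less against 129/Sv. For the mean 1272 had one of 0.0394 or less, and between the strains 2169 one of 0.0489 or less. The nearest tested genes, Axl before the cluster and Egln2 after it, differed by -0.22 and -0.21 between null and B6 arrays (adjusted p = 0.623 and 0.549). Between Cyp2s1 and Cyp2t4 lie 29 other genes, 15 of them pseudogenes. The annotation used here pairs 0 of them with a probe set, so they were not analysed here.

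**Figure D5:**
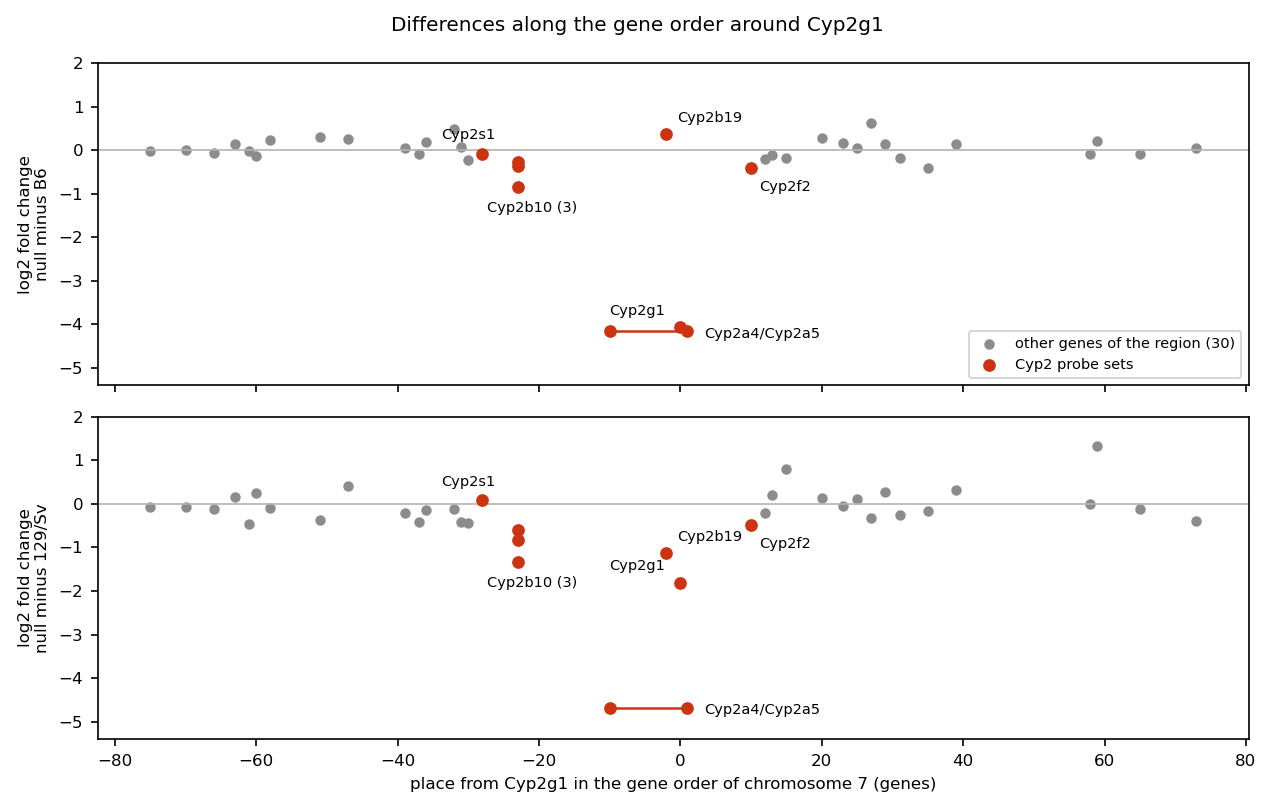
Log2 fold change of null against B6 (top) and against 129/Sv (bottom) along the gene order of chromosome 7, counted in genes from Cyp2g1. Red points are the tested Cyp2 probe sets, with the shared Cyp2a4/Cyp2a5 value drawn at both genes and joined, and grey points are the 30 other genes, which stay between -0.47 and 1.32.

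Genes that serve these enzymes were then counted. Over all probe sets, 2.18%, 2.04%, 1.22% and 5.19% were called in either direction against B6, 129/Sv, the mean and between the strains, so a list of this size would hold few or no calls at those shares. Of 13 partners of cytochrome P450s (electron donors, haem enzymes and the epoxide hydrolase), 11 were tested, and Por, the P450 reductase, and Hmox1 were not. Of those tested, 0 were called in any of the 4 comparisons (limma, with 3 at an unadjusted p under 0.05 in each). Such p-values were common over all probe sets too, as given for the neighbours above, so counts of them in these lists are not read as results. The median differences of the partners were 0.12 against B6 and -0.1 against 129/Sv. Cyb5a, the microsomal cytochrome b5, averaged 26850 in 129/Sv, 21510 in B6 and 25710 in null arrays, and Pgrmc1, a haem-binding P450 partner, averaged 15320, 12930 and 14060. Of 20 regulators known for this family 14 were tested, and Nr1i3, the constitutive androstane receptor, was not among them. Nfia, a nuclear factor I gene, was higher in null than in B6 arrays (4097, 2166 and 3459 in 129/Sv, B6 and null; difference 0.69, SE 0.15, adjusted p = 0.0289). Nfia and Nfix were the 2 called between the strains, both lower in B6 (-0.94 and -0.48, adjusted p = 0.00432 and 0.0211). No regulator was called against 129/Sv or against the mean (1 at an unadjusted p under 0.05 in each). Of 12 P450s from outside the cluster that are known in the nose 6 were tested. Cyp1a2, Cyp2e1, Cyp2c29, Cyp2d22, Cyp3a13 and Cyp2u1 were not. Of those tested, 0 were called in the 3 null comparisons. The numbers at an unadjusted p under 0.05 were 0, 2 and 0 against B6, 129/Sv and the mean. Cyp4b1, a fatty acid and arylamine hydroxylase, had 4493, 3604 and 4080, and Cyp27a1, the mitochondrial sterol hydroxylase, 2410, 1807 and 2222. Cyp4a12a, named after its values were seen, was lower in B6 than in 129/Sv (-0.91, adjusted p = 0.0312).

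The probe sets whose profile over the 9 arrays was most like that of Cyp2g1 belonged to Kctd14, Gpm6a, Slc1a5, Gpx6 and Naip2. Likeness was the root mean square difference between log2 profiles centred on their own means, which was 1.27 for Kctd14 and 1.31 to 1.32 for the others, where Cyp2g1 itself spreads by 2.03. Slc1a5, a neutral amino acid transporter, averaged 6878 in B6 arrays against 1589 in 129/Sv and 1550 in null arrays. Gpx6, a glutathione peroxidase of the olfactory mucosa, had 574.4, 1509 and 419.7. Nearest to the Cyp2a4/Cyp2a5 profile, which spreads by 2.09, were both probe sets of Dbp, a circadian transcription factor, at 1.09 and 1.11. One averaged 5435, 2430 and 569.6, the other 16440, 7387 and 1611, in the order 129/Sv, B6, null. Cct3, Dglucy and Cyp2g1 followed at 1.29, 1.38 and 1.39.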

How the data were processed

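RNA of pooled lateral nasal glands was measured on 9 1-colour Affymetrix arrays. The deposited values are intensities on a linear scale that the authors computed with MAS5, per the submitters' processing notes, and whose 2% trimmed mean was 1500.6 on every array. No detection calls were used. The 64 control probe sets of 22690 were left out. The analysis used log2(signal + 16) and no second normalization. Probe sets above the array median on 2 or more of the arrays entered the fit (12575). A mean per group was fitted to all 3 groups by lmFit and trended eBayes of limma 3.58.1 (R 4.3.3). Adjusted p-values are two-sided, from Benjamini-Hochberg over all probe sets tested, with a threshold of 0.05, and intervals are at 95%. The fit was tested on simulated data. Cyp2g1 and the Cyp2a4/Cyp2a5 probe set were also compared by exact permutation. Precision is limited by how few arrays there are. The labels give no batch or scan date.

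Probe sets were named from the platform annotation, and gene order came from the RefSeq table of GRCm38.p6. Sequences were aligned with Biopython 1.88. Of a gene with several probe sets in a list, the one with the highest mean was used. Named were all members, the 5 probe sets most like Cyp2g1 and the Cyp2a4/Cyp2a5 probe set, called neighbours, and up to 4 called genes of each list, or its 2 brightest where fewer than 2 were called. Obp1a, Aqp5 and the nearest tested neighbours Axl and Egln2 were named outside this rule. The members and lists were chosen with earlier results of these data known. Alternatives were other normalizations, pseudocounts of 1 and 64, other filters, array weights, untrended eBayes, a block on the replicate number, only the groups compared, wild-type arrays as 1 group, a threshold of 0.01, no probe sets that can match several transcripts, and each array left out. The olfactory covariate was added after seeing the data.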

Additional observations from a re-analysis of the deposited data

How the results depend on the processing

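The numbers of member probe sets called, 2 against B6, 3 against 129/Sv, 3 against the mean of both strains and 1 between the strains, moved as follows. With array weights 4 were called against B6, while calls over all probe sets rose from 2.18% to 3.9%. With the multi-transcript probe sets left out 1 of the 4 remaining was (2.05% of all), since the shared Cyp2a4/Cyp2a5 probe set is of that type. With eBayes without trend, or a threshold of 0.01, 1 was called against 129/Sv (1.32% and 0.994% of all) and 1 against the mean (0.469% and 0.414%). When the 6 wild-type arrays formed 1 group, 1 was called against the mean (0.0318% of all). With the olfactory covariate 7 were called against 129/Sv (1.69% of all) and 2 between the strains (2.49%). When each array was left out in turn, 2 to 4 were called against B6, 1 to 4 against 129/Sv, 1 to 6 against the mean and 1 to 2 between the strains. In the same order, calls over all probe sets ran from 1.23% to 4.91%, 1.02% to 2.62%, 0.464% to 2.34% and 2.74% to 6.93%. Those left-out arrays that gave 1 were 129/Sv array 2 and null array 1 against 129/Sv, and 129/Sv array 2, B6 array 3 and null arrays 1 and 2 against the mean. The permutation difference of Cyp2g1 ran from -3.83 to -2.86 over these, and that of Cyp2a4/Cyp2a5 from -4.63 to -4.17.

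Samples of the same replicate number deviated together no more than other pairs did. Correlations of the deviations of 7 same-numbered pairs ran from -0.075 to 0.096, and those of 19 other pairs from -0.12 to 0.12. Deviations were taken from each group's own mean, and in a group of 2 arrays they mirror each other. The correlations are therefore not independent and cannot decide whether the numbers pair the pools. With the replicate block, where B6 array 4 has a number of its own and adds nothing, 2, 4, 2 and 2 members were called in the 4 comparisons (1.76%, 2.23%, 1.1% and 4.44% of all). The call it added between the strains was Cyp2a4/Cyp2a5, lower in B6 (-0.92, adjusted p = 0.024).

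Of 688 single values recomputed, 614 kept direction and call, 29 lost a call, 35 gained one and 10 changed sign, none of them called. The sign changes of Cyp2s1 were 0.024 against B6, -0.058 against 129/Sv and -0.082 between the strains with the covariate, 0.0072 against the mean with quantile normalization, and, with an array left out, -0.083 against 129/Sv (range -0.083 to 0.242) and 0.013 to 0.075 against the mean (range -0.0873 to 0.075). Cyp2f2 changed sign between the strains without B6 array 2 (0.0201), in a range from -0.1 to 0.0201.

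Over all probe sets tested in each setting, calls numbered 274 against B6 (129 to 611 over the alternatives), 256 against 129/Sv (125 to 363), 154 against the mean (4 to 292, the lowest when the 6 wild-type arrays formed 1 group) and 653 between the strains (313 to 863).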
